A study of Arabidopsis thaliana with 24 samples.

Results

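WRKY6, WRKY22 and WRKY53 are WRKY transcription factors of Arabidopsis thaliana that act in pathogen defence and leaf senescence. They are 3 of the 13513 genes that the platform annotation pairs with a probe set of their own on the Affymetrix ATH1 array, and each is read by 1 probe set: WRKY6 is locus AT1G62300, WRKY22 is AT4G01250 and WRKY53 is AT4G23810. The 3 genes were chosen by their log2 signal in these arrays, with the differences between lines and salt levels already known, so their levels and differences are given as a description with standard errors and without a test. Tests are given only for other genes. The lists of those genes were also chosen with earlier results of these data known, so their adjusted p-values are not independent support.

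Leaves were taken 20 days after sowing from 3 transgenic lines and from the wild type of each line's background. The groups were a CBF3 overexpressor and Ws, an M6PR line and Col, and a SOS1 overexpressor and glabrous Col, called Col(gl) here. CBF3 encodes a transcription factor of the cold response, M6PR a mannose-6-phosphate reductase of mannitol synthesis, and SOS1 a plasma membrane sodium/proton antiporter. Each of the 6 genotypes was sampled at 100 mM and at 0 mM NaCl. Salt was begun 14 days after sowing and raised by 50 mM every 2 days up to 100 mM, so salted plants were sampled after 6 days of the protocol. This makes 12 groups of 2 arrays, and the labels call the 2 arrays of a group biological replicates. At least 15 seedlings were pooled per sample, and plants were kept at 10 h light and 14 h dark. All groups are leaves of whole young plants. The labels do not name the promoter of a transgene, nor say whether a line is 1 clone.

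WRKY proteins bind the W box, a short DNA element found in many promoters of defence and senescence genes, and many of them regulate each other. WRKY22 acts downstream of the MAP kinase cascade that is started when the flagellin receptor binds its ligand, and it also promotes senescence of leaves kept in the dark. WRKY53 is an early regulator of leaf senescence that reacts to hydrogen peroxide and to the balance of salicylate and jasmonate. WRKY6 is induced in senescing leaves and after bacterial infection, acts upstream of the senescence-induced receptor kinase SIRK, and represses the phosphate exporter gene PHO1.

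Values are log2 array signals, so a difference of 1 is a change by a factor of 2. The 24 array medians lay between 5.77 and 6.09, and WRKY6 was below its array's median on 13 arrays, WRKY22 on 11 and WRKY53 on 11. The leaf markers RCA, SBPASE and PRK, genes of Rubisco activation and the Calvin cycle, read 12.04 to 13.94 on all 24 arrays. Replicate 1 of salted Ws and replicate 1 of salted Col stood apart from the other 22 arrays: their dap spike-in signals were 6.73 and 7.10, against 9.50 to 11.25, and their actin 3′ minus 5′ difference was 3.84, against 2.15 to 3.15. In these 2 arrays the plastid-encoded rbcL and psbA read 6.20 to 8.29, against 8.70 to 12.40 in the other 22. The 18 differences of the 3 genes that use these arrays kept their sign without them, and values that moved are given below. The sample descriptions of the CBF3 and M6PR arrays name another background than their characteristics do. Titles name the line but not its background, and the titles and characteristics were followed. At 19 probe sets that differ by at least 3 log2 units between Ws and both Columbia wild types, all 4 CBF3 arrays lay nearer Ws at 19 of 19, and all 4 M6PR arrays nearer Columbia at 19 of 19. The probe sets of the transgenes themselves are not paired with a gene in the annotation used, so the lines' labels were not checked by the transgene.

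WRKY53 had the widest range of the 3 genes, with group means from 4.79 in unsalted Ws to 8.41 in salted Col, a 12.3-fold range of signal. In the Ws background at 100 mM NaCl, WRKY53 read 5.17 and 5.11 in the CBF3 line, against 6.45 and 7.23 in Ws. Without salt it read 5.52 and 5.71 in the CBF3 line, against 4.81 and 4.76 in Ws. The CBF3 arrays were thus the lower ones under salt and the higher ones without it, and no array of the line overlapped its wild type. In the Col background at 100 mM NaCl, WRKY53 read 6.95 and 7.09 in the M6PR line, against 8.18 and 8.64 in Col. At 0 mM NaCl it read 5.64 and 5.80 in the M6PR line, against 5.42 and 5.40 in Col. Both genotypes were high under salt, and salted Col was the highest group of all 12. In the Col(gl) background at 100 mM NaCl, WRKY53 read 6.21 and 5.61 in the SOS1 line, against 6.42 and 6.44 in Col(gl). In unsalted leaves it read 6.92 and 8.86 in the SOS1 line, against 6.67 and 6.44 in Col(gl). The 2 unsalted SOS1 arrays were far apart, and the 8.86 of replicate 2 was the highest WRKY53 value of any array.

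WRKY22 had group means from 4.38 in unsalted Col to 7.62 in the unsalted M6PR line, a 9.41-fold range of signal. In the Ws background at 100 mM NaCl, WRKY22 read 5.10 and 5.29 in the CBF3 line, against 5.30 and 5.59 in Ws. Without salt it read 5.38 and 5.77 in the CBF3 line, against 4.67 and 4.86 in Ws. All 8 arrays of this background were at the low end of the gene's range. In the Col background at 100 mM NaCl, WRKY22 read 5.86 and 6.80 in the M6PR line, against 7.24 and 7.06 in Col. At 0 mM NaCl it read 7.61 and 7.63 in the M6PR line, against 4.40 and 4.37 in Col. Unsalted M6PR and unsalted Col held the highest and the lowest mean of the 12 groups, and the replicates within each were close. In the Col(gl) background at 100 mM NaCl, WRKY22 read 6.08 and 4.89 in the SOS1 line, against 6.38 and 6.63 in Col(gl). In unsalted leaves it read 6.36 and 6.75 in the SOS1 line, against 7.42 and 7.02 in Col(gl). Every SOS1 array lay below the Col(gl) arrays of the same salt level.

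WRKY6 varied least, with group means from 4.93 in unsalted Ws to 6.58 in salted Col, a 3.13-fold range of signal. In the Ws background at 100 mM NaCl, WRKY6 read 5.22 and 5.87 in the CBF3 line, against 5.80 and 6.09 in Ws. Without salt it read 5.10 and 5.22 in the CBF3 line, against 4.82 and 5.05 in Ws. The salted groups of this background overlapped and the unsalted ones did not. In the Col background at 100 mM NaCl, WRKY6 read 5.86 and 6.23 in the M6PR line, against 5.89 and 7.27 in Col. At 0 mM NaCl it read 6.37 and 5.86 in the M6PR line, against 5.19 and 5.16 in Col. The 7.27 of salted Col replicate 2 was the highest WRKY6 value, while replicate 1 of that group was within the M6PR range. In the Col(gl) background at 100 mM NaCl, WRKY6 read 5.93 and 5.17 in the SOS1 line, against 6.64 and 6.41 in Col(gl). In unsalted leaves it read 6.05 and 6.05 in the SOS1 line, against 6.17 and 6.17 in Col(gl). The SOS1 arrays lay below Col(gl) at both salt levels, by little without salt.

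**Figure D1:**
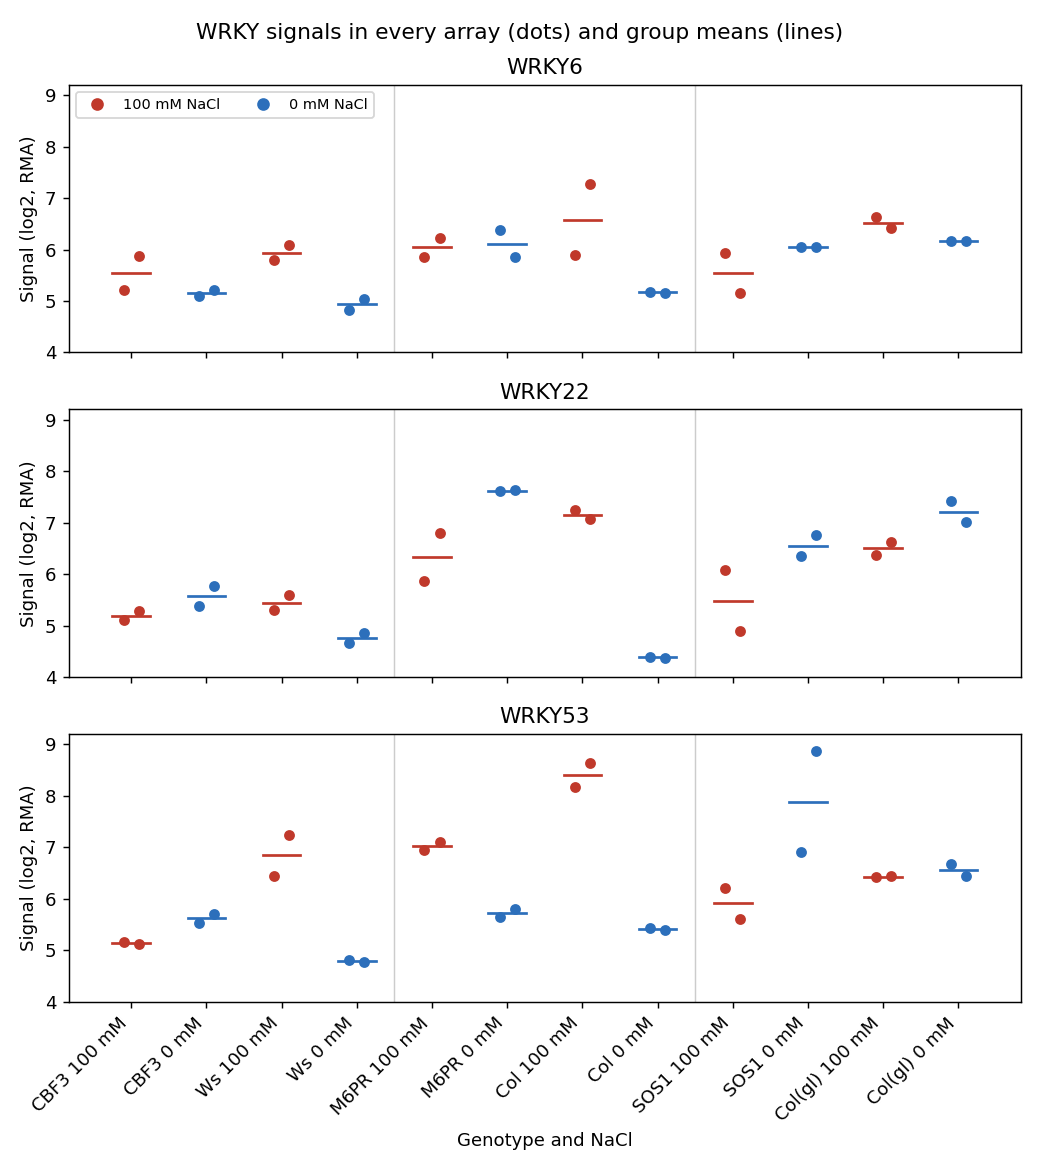
Log2 signal of WRKY6, WRKY22 and WRKY53 on each of the 24 arrays (vertical axis), by group (horizontal axis). Points are arrays, red at 100 mM and blue at 0 mM NaCl, and dashes are the means of 2 arrays. WRKY53 spans 4.76 to 8.86, WRKY22 4.37 to 7.63 and WRKY6 4.82 to 7.27.

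Ordered by group mean, many neighbouring groups were not separated by their own arrays. For WRKY53 the order of means was unsalted Ws 4.79, salted CBF3 5.14, unsalted Col 5.41, unsalted CBF3 5.62, unsalted M6PR 5.72, salted SOS1 5.91, salted Col(gl) 6.43, unsalted Col(gl) 6.56, salted Ws 6.84, salted M6PR 7.02, unsalted SOS1 7.89 and salted Col 8.41. Only 4 of its 11 neighbouring pairs did not overlap, and its spread within groups was 0.46 (SD pooled over the 12 groups). For WRKY22 the order was unsalted Col 4.38, unsalted Ws 4.76, salted CBF3 5.20, salted Ws 5.45, salted SOS1 5.48, unsalted CBF3 5.57, salted M6PR 6.33, salted Col(gl) 6.50, unsalted SOS1 6.55, salted Col 7.15, unsalted Col(gl) 7.22 and unsalted M6PR 7.62. Of its 11 neighbouring pairs 6 did not overlap, with a spread within groups of 0.36. For WRKY6 the order was unsalted Ws 4.93, unsalted CBF3 5.16, unsalted Col 5.17, salted CBF3 5.54, salted SOS1 5.55, salted Ws 5.94, salted M6PR 6.04, unsalted SOS1 6.05, unsalted M6PR 6.11, unsalted Col(gl) 6.17, salted Col(gl) 6.52 and salted Col 6.58. Only 3 of its 11 neighbouring pairs did not overlap, with a spread within groups of 0.38. The SD of the 12 group means was larger than that of 97.6% of all probe sets for WRKY53, 97.2% for WRKY22 and 87.2% for WRKY6.

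Under salt, all 3 genes averaged lower in the transgenic line than in its wild type in all 3 backgrounds. The 9 differences ran from -0.25 to -1.70, and of all probe sets 13.1% were lower in the line in all 3 backgrounds. In CBF3 leaves WRKY53 was lower than in Ws by a log2 difference of -1.70 ± 0.42, a 3.26-fold lower signal. Values after ± here and below are standard errors (SE) from 1 fit over all groups, with 2 arrays a group. WRKY22 differed by -0.25 ± 0.33 and WRKY6 by -0.40 ± 0.35, both near the standard error. WRKY53 and WRKY22 were 2 of 3 genes lower without overlap, against 21.9% of all probe sets. The WRKY22 difference was -0.10 without Ws replicate 2 and -0.40 without Ws replicate 1, an array that stood apart. The WRKY6 difference was -0.08 without CBF3 replicate 1 and -0.73 without CBF3 replicate 2. The SE pools a gene's spread over all groups, so it is the same for each of its comparisons of 2 groups. It understates the spread where the 2 arrays of a group lie far apart. The largest SD within a group was 1.37 for WRKY53 (unsalted SOS1), 0.98 for WRKY6 (salted Col) and 0.84 for WRKY22 (salted SOS1).

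In salted M6PR leaves WRKY53 was again the most different, at -1.39 ± 0.42 against Col, a 2.61-fold lower signal. WRKY22 differed by -0.82 ± 0.33, and this was -0.35 without M6PR replicate 1 and -1.29 without M6PR replicate 2. WRKY6 differed by -0.54 ± 0.35 with overlapping arrays, and its sign depended on Col: the difference was 0.15 without Col replicate 2 and -1.23 without Col replicate 1, the array that stood apart. WRKY53 and WRKY22 were again 2 of 3 genes lower without overlap, against 23.7% of all probe sets. In salted SOS1 leaves all 3 genes were lower than in Col(gl) without overlap, against 20.9% of all probe sets. WRKY22 differed by -1.02 ± 0.33, WRKY6 by -0.98 ± 0.35 and WRKY53 by -0.52 ± 0.42. SOS1 replicate 2 was the lower array for each gene, and without it the differences were -0.42 for WRKY22, -0.60 for WRKY6 and -0.22 for WRKY53. Without SOS1 replicate 1 they were -1.62 for WRKY22 and -0.82 for WRKY53.

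Without salt the direction was mostly the other way, with 7 of 9 differences above 0. Only 1 of the 3 genes, WRKY53, was above 0 in all 3 backgrounds, as were 11% of all probe sets. The largest difference was that of WRKY22 in M6PR leaves, at 3.23 ± 0.33 against Col, a 9.41-fold higher signal. Only 0.497% of probe sets differed by more in that comparison, in either direction. WRKY6 was higher there by 0.94 ± 0.35 and WRKY53 by 0.31 ± 0.42, so all 3 genes were higher without overlap, against 21.4% of all probe sets. In unsalted CBF3 leaves WRKY53 was higher than in Ws by 0.83 ± 0.42 and WRKY22 by 0.81 ± 0.33. WRKY6 was higher by 0.23 ± 0.35, which is within its standard error, and by 0.12 without Ws replicate 1 and 0.34 without Ws replicate 2. All 3 genes were again higher without overlap, against 28.6% of all probe sets. In unsalted SOS1 leaves the genes parted. WRKY53 was higher than in Col(gl) by 1.33 ± 0.42, a value that was 0.36 without SOS1 replicate 2 and 2.30 without SOS1 replicate 1. WRKY22 was lower by a log2 difference of -0.66 ± 0.33 and WRKY6 differed by -0.12 ± 0.35. Thus 1 gene was higher without overlap, against 16.8% of all probe sets, and 2 were lower without overlap, against 22.6%.

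**Figure D2:**
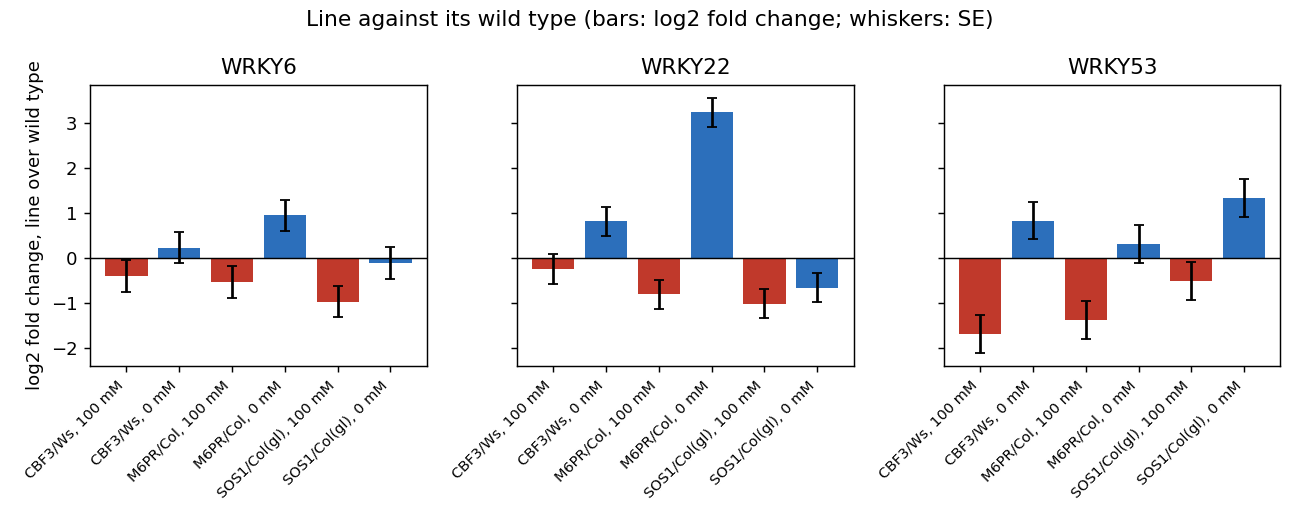
Log2 fold change of each transgenic line against its wild type (vertical axis) for the 3 WRKY genes, with bars running through the CBF3, M6PR and SOS1 comparisons, red at 100 mM and blue at 0 mM NaCl. Error bars are standard errors from 1 fit over 24 arrays. All 9 salted differences are below 0, and WRKY22 in unsalted M6PR leaves reaches 3.23.

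Salt was accompanied by higher levels of all 3 genes in Ws and in Col, while in Col(gl) only WRKY6 averaged higher. In Col, 100 mM against 0 mM NaCl, WRKY53 was higher by 3.0 ± 0.42, an 8.0-fold higher signal, and WRKY22 by 2.77 ± 0.33, a 6.81-fold higher signal. WRKY6 was higher by 1.41 ± 0.35, and this was 0.72 without salted Col replicate 2. Without salted Col replicate 1, which stood apart, the difference for WRKY6 was 2.1. All 3 genes were higher without overlap, against 27% of all probe sets, and the unsalted Col arrays used here are also those that the unsalted M6PR leaves were compared with. In Ws, WRKY53 was higher under salt by 2.06 ± 0.42, a 4.16-fold higher signal, WRKY6 by 1.01 ± 0.35 and WRKY22 by 0.68 ± 0.33. All 3 were higher without overlap there too, against 24.2% of all probe sets. In Col(gl), WRKY22 differed by -0.71 ± 0.33 and WRKY6 by 0.36 ± 0.35, while the WRKY53 arrays overlapped at -0.13 ± 0.42, with -0.24 and -0.01 when either unsalted array was left out. One of 3 genes was lower without overlap, against 28.4% of all probe sets, and 1 was higher, against 26.5%. The 2 Columbia wild types also differed in the groups without salt. Unsalted Col(gl) exceeded unsalted Col by 2.83 ± 0.33 for WRKY22, 1.15 ± 0.42 for WRKY53 and 1.0 ± 0.35 for WRKY6. The arrays come from whole leaves, in which fewer cells of a type and less RNA per cell cannot be told apart.

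In the transgenic lines, 7 of the 9 salt differences were below 0. Only 1 of the 3 genes, WRKY22, was below 0 in all 3 lines, as were 10.3% of all probe sets. In SOS1 leaves all 3 genes were lower under salt without overlap, against 6.41% of all probe sets. WRKY53 differed by -1.98 ± 0.42, a 3.94-fold lower signal, WRKY22 by -1.07 ± 0.33 and WRKY6 by -0.50 ± 0.35. Single SOS1 arrays moved these values: WRKY53 was at -1.01 without unsalted replicate 2, WRKY22 at -0.47 without salted replicate 2, and WRKY6 at -0.12 without salted replicate 2. Without salted replicate 1, WRKY22 was at -1.67 and WRKY6 at -0.89. In M6PR leaves the genes went different ways, with WRKY53 higher under salt by 1.3 ± 0.42, WRKY22 lower with a difference of -1.28 ± 0.33, and WRKY6 overlapping at -0.07 ± 0.35. WRKY53 was 1 of 3 genes higher without overlap, against 16% of all probe sets, and WRKY22 was 1 of 3 lower, against 20.2%. The WRKY22 value was -0.81 without salted M6PR replicate 1, and the WRKY6 value lay between -0.33 and 0.19 when single M6PR arrays were left out, the ends being without unsalted replicate 2 and replicate 1. In CBF3 leaves WRKY53 differed by -0.48 ± 0.42 and WRKY22 by -0.38 ± 0.33, 2 of 3 genes lower without overlap, against 15.7% of all probe sets. The WRKY22 value was -0.18 without unsalted CBF3 replicate 2 and -0.58 without unsalted CBF3 replicate 1. WRKY6 overlapped at 0.38 ± 0.35, and was at 0.71 without salted CBF3 replicate 1 and at 0.06 without salted CBF3 replicate 2.

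**Figure D3:**
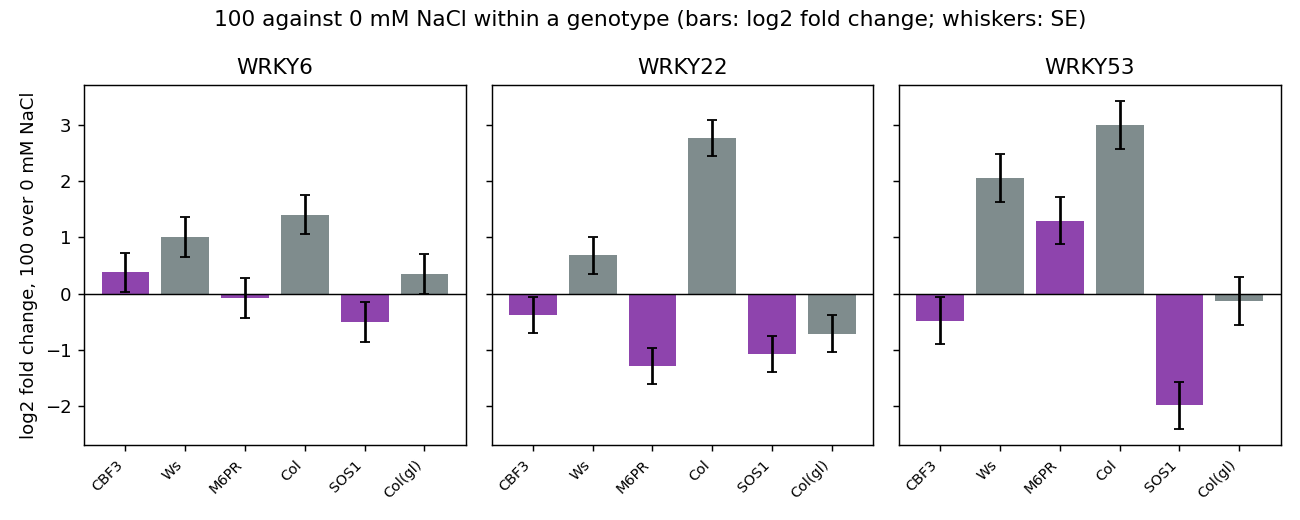
Log2 fold change at 100 mM against 0 mM NaCl (vertical axis) for the 3 WRKY genes in CBF3, Ws, M6PR, Col, SOS1 and Col(gl) leaves, purple for lines and grey for wild types, with standard errors from 1 fit over 24 arrays. The bars of Ws and Col are above 0 for every gene, up to 3.0 for WRKY53 in Col, and those of SOS1 are below 0 for every gene.

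The salt difference of the line minus that of its wild type puts these together, and it was below 0 for each gene in each background, 9 of 9 values, where 12.1% of all probe sets were below 0 in all 3 backgrounds. The 3 backgrounds share no arrays, but the genes were chosen with these values known. In the M6PR and Col pair the value was -4.05 ± 0.46 for WRKY22, -1.70 ± 0.59 for WRKY53 and -1.48 ± 0.50 for WRKY6. WRKY22 was thus lower under salt in M6PR leaves and higher under salt in Col leaves. In the CBF3 and Ws pair it was -2.53 ± 0.59 for WRKY53, -1.06 ± 0.46 for WRKY22 and -0.63 ± 0.50 for WRKY6. In the SOS1 and Col(gl) pair it was -1.85 ± 0.59 for WRKY53, -0.86 ± 0.50 for WRKY6 and -0.36 ± 0.46 for WRKY22. The WRKY22 value of this pair was 0.24 without salted SOS1 replicate 2, so its sign rested on that array, and -0.95 without salted SOS1 replicate 1. The WRKY53 value was -0.88 without unsalted SOS1 replicate 2 and -2.82 without unsalted SOS1 replicate 1. The WRKY6 values were -0.79 in the M6PR pair without salted Col replicate 2 and -0.30 in the CBF3 pair without salted CBF3 replicate 1, against -0.95 there without salted CBF3 replicate 2. Without the 2 arrays that stood apart, the WRKY53 value was -2.92 in the CBF3 pair and -1.93 in the M6PR pair, and the WRKY6 value of the M6PR pair was -2.17.

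Over the 12 group means, WRKY6 and WRKY22 had the most similar pattern of the 3 pairs, with Pearson's r of 0.83 and Spearman's rho of 0.83. For WRKY6 and WRKY53 r was 0.77 and rho 0.75. For WRKY22 and WRKY53 r was 0.60 and rho 0.61. Leaving out the 2 groups farthest from the median of the first gene gave r of 0.83 for WRKY6 and WRKY22, 0.69 for WRKY6 and WRKY53, and 0.79 for WRKY22 and WRKY53, where the groups left out were unsalted M6PR and unsalted Col. The groups share genotypes, salt levels and arrays between the genes, so these are descriptions. Within groups, the 2 arrays differed in the same direction for WRKY6 and WRKY22 in 9 of 12 groups, for WRKY6 and WRKY53 in 8, and for WRKY22 and WRKY53 in 9.

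**Figure D4:**
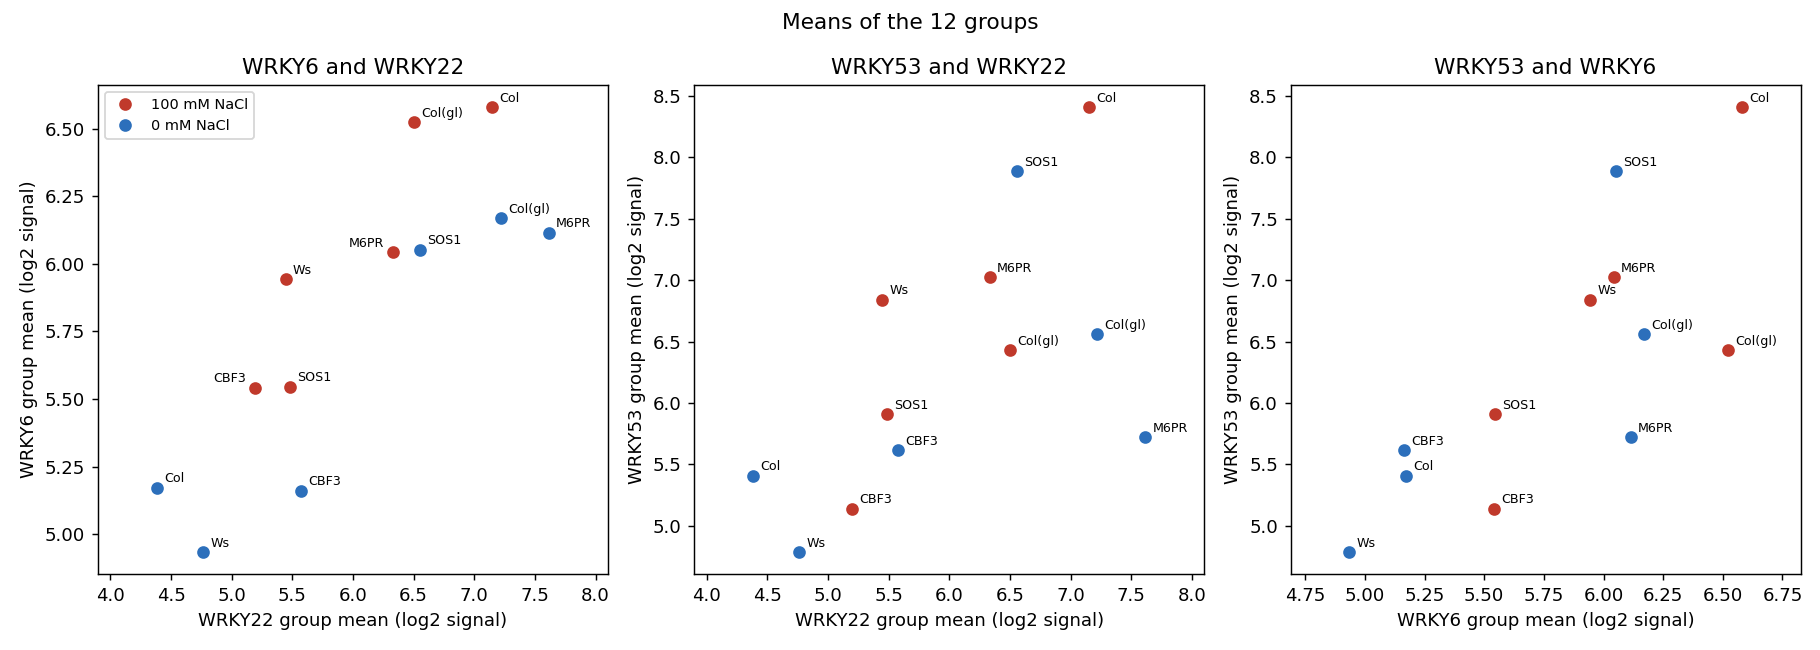
Group means of log2 signal for each pair of the 3 WRKY genes, 1 point per group (12), red at 100 mM and blue at 0 mM NaCl. Points rise together most closely for WRKY6 with WRKY22 (r = 0.83), and unsalted M6PR, with WRKY22 at 7.62 and WRKY53 at 5.72, lies away from the others for WRKY22 with WRKY53 (r = 0.60).

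The 5 genes most like each WRKY gene over the 12 group means were taken from the 13512 other genes with a probe set of their own, among which few are WRKY genes. For WRKY22 they were AT1G70740 (r = 0.97), AT1G59910 (0.96), AT2G25735 (0.95), AT5G18150 (0.95) and AT5G23130 (0.94). Of these, AT2G25735 ranged most widely, with group means from 4.34 to 9.32. For WRKY6 they were AT1G70780 (r = 0.95), AT4G22470 (0.95), AT1G07520 (0.94), TET8 (0.94), a tetraspanin of extracellular vesicles, and AR781 (0.93). For WRKY53 they were AT2G39650 (r = 0.95), AT1G35210 (0.91), AT2G43590 (0.90), AT1G75230 (0.90) and AT5G52050 (0.90). Over the 24 single arrays r was lower for each of these genes. It was 0.91 to 0.95 for those of WRKY22, 0.73 to 0.86 for those of WRKY6 and 0.79 to 0.90 for those of WRKY53. WRKY6 ranked 100th in likeness to WRKY22 and 74th to WRKY53, WRKY22 ranked 67th to WRKY6 and 416th to WRKY53, and WRKY53 ranked 170th to WRKY6 and 646th to WRKY22.

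Of 64 other WRKY genes named in RefSeq, 3 could be read, and these were tested with limma over all 22746 probe sets, with Benjamini-Hochberg adjustment in each of 15 comparisons. WRKY47 rose in unsalted M6PR leaves, reading 6.73 and 6.15 against 5.24 and 5.52 in Col (log2 fold change 1.06 ± 0.29, adjusted p = 0.027), where 10.3% of all probe sets were called. WRKY47 was lower in salted SOS1 leaves, reading 5.54 and 4.93 against 6.74 and 6.77 in Col(gl) (-1.52 ± 0.29, limma adjusted p = 0.01), where 3.13% were called. In SOS1 leaves it averaged 5.23 with and 5.25 without salt, and in Col(gl) leaves 6.76 with and 5.81 without salt. WRKY20, at 8.0 to 8.71 over all arrays, and WRKY42, at 3.96 to 4.91, passed the threshold in none of the 15 comparisons, so 1 of the 3 genes was called in any, where 31.3% of all probe sets were called in at least 1 of the 15. None of the genes of these lists was called under salt in M6PR (0.541% of all probe sets called), under salt in Col(gl) (0.132%) or in the interaction of CBF3 and Ws (0.0703%). The call in M6PR leaves was lost when each background was fitted on its own.

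Defence genes upstream of or beside the WRKY factors were measured only in part. Of 23 genes of pattern receptors and the MAP kinase cascade, 2 could be read, EFR, the receptor for the bacterial elongation factor EF-Tu, and BIK1, a cytoplasmic kinase that relays receptor signals. BIK1 rose in unsalted M6PR leaves, reading 8.82 and 8.19 against 7.36 and 7.54 in Col (1.05 ± 0.32, limma adjusted p = 0.047). The unsalted Col(gl) wild type averaged 8.19 for BIK1. The call was lost in a fit of the Col background alone and with a replicate block. The count of calls on this list changed in 17 fits that left out 1 array. EFR stayed between 5.22 and 6.06 and was not called. On a wider list of 11 immunity genes that includes these 2, 7 were called in at least 1 of the 15 comparisons, as were 31.3% of all probe sets. Their calls between 2 groups were 8 higher and 2 lower, and 1 interaction was below 0. Of the higher calls 3 were in unsalted M6PR against Col and 2 under salt in Col, which share the unsalted Col arrays. The share of all probe sets called in each direction is not given here, so this split is only a description. The receptor kinase FERONIA (FER) rose in unsalted M6PR leaves, reading 10.56 and 10.61 against 9.30 and 9.19 in Col (1.34, limma adjusted p = 0.00057). The unsalted Col(gl) wild type averaged 10.26 for FER. In unsalted CBF3 leaves FER was higher than in Ws (0.76, limma adjusted p = 0.027), where 6.79% of all probe sets were called. FER also rose under salt in Col (0.74, adjusted p = 0.014), where 20.9% were called, and the interaction of salt with line was -1.54 in M6PR against Col (adjusted p = 0.0076), where 6.08% were called. The same 2 unsalted Col arrays enter the FER rise in M6PR leaves, its rise under salt in Col and this interaction.

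PUB22, PUB23 and PUB24 are related U-box ubiquitin ligases that dampen pattern-triggered immunity, and each was called in at least 1 comparison. PUB23 rose in unsalted M6PR leaves, reading 7.54 and 7.23 against 5.44 and 5.27 in Col (2.03 ± 0.50, limma adjusted p = 0.015). It also rose under salt in Col, to 7.60 and 8.33 at 100 mM (2.61 ± 0.50, adjusted p = 0.0028), while the same 2 Col arrays at 0 mM served both comparisons. The unsalted Col(gl) wild type averaged 7.57 for PUB23, against 5.36 in Col and 7.39 in M6PR leaves. PUB22 rose in unsalted CBF3 leaves (0.74, adjusted p = 0.022) and PUB24 fell in salted SOS1 leaves (-1.47, adjusted p = 0.033). SBT3.3, a subtilase of immune priming, rose under salt in Ws (0.64, adjusted p = 0.0084), where 4.71% of probe sets were called, and GLR2.7, a glutamate receptor-like channel, fell under salt in Col (-1.55, adjusted p = 0.044).

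Of 33 genes of salicylate synthesis and response, 2 could be read, and both were called in at least 1 of the 15 comparisons, as were 31.3% of all probe sets. GRX480, a glutaredoxin that binds TGA factors in salicylate and jasmonate crosstalk, fell in salted M6PR leaves, reading 6.93 and 6.59 against 8.95 and 8.22 in Col (-1.83 ± 0.34, limma adjusted p = 0.029), where 0.528% of probe sets were called. Under salt in Col, a comparison that shares the salted Col arrays, it rose (2.09 ± 0.34, adjusted p = 0.0012), and the interaction in M6PR against Col was -2.09 ± 0.48 (adjusted p = 0.021). SAG101, a lipase-like partner of EDS1, rose in unsalted M6PR leaves (0.81 ± 0.21, limma adjusted p = 0.023). Its unsalted mean was 5.04 in Col, 5.85 in M6PR and 6.27 in Col(gl) leaves. SAG101 fell in SOS1 leaves, unsalted (-1.04 ± 0.21, adjusted p = 0.029), where 1.24% of probe sets were called, and salted (-1.02 ± 0.21, adjusted p = 0.017). On a wider list of 5 salicylate genes that includes these 2, 4 were called in at least 1 comparison, against the same 31.3%, with 4 calls higher and 4 lower between 2 groups and 1 interaction below 0. UGT76B1, a glucosyltransferase of salicylate and N-hydroxypipecolate, rose under salt in Ws (2.30, adjusted p = 0.0084) and fell in salted CBF3 leaves against Ws (-1.92, adjusted p = 0.023), where 3.73% of probe sets were called. These 2 comparisons share the salted Ws arrays, which read 5.22 in replicate 1, the array that stood apart, and 7.15 in replicate 2. BSMT1, which methylates salicylate, rose under salt in Ws (4.32, adjusted p = 0.016).

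Of 51 senescence genes 4 could be read, SAG29, SAG101, NOL and APG8A, and SAG101 was the only one called. SAG29, a sugar transporter of senescing leaves, read 7.87 and 8.40 in salted CBF3 leaves, against 5.90 and 4.97 without salt. The difference missed the threshold (2.7 ± 0.65, limma adjusted p = 0.53), where 0.00879% of all probe sets were called. A higher SAG29 mean under salt was not particular to CBF3. It was 8.85 against 7.04 without salt in Ws, 7.33 against 5.78 in M6PR and 6.14 against 5.39 in SOS1. In Col(gl) it was 5.40 against 5.45. In salted Col SAG29 read 5.55 in the array that stood apart and 8.58 in the other. On a wider list of 17 senescence and autophagy genes that includes SAG101, 6 were called in at least 1 comparison, against 31.3% of all probe sets, with 2 calls higher and 7 lower between 2 groups and 1 interaction below 0. Of the lower calls 3 were under salt in Col, where 20.9% of all probe sets were called. ATG8E, a ubiquitin-like protein of autophagosomes, rose in unsalted M6PR leaves, reading 9.82 and 9.52 against 6.33 and 6.17 in Col (3.42, limma adjusted p = 0.0016). The unsalted Col(gl) wild type averaged 9.29 for ATG8E. The interaction of ATG8E in M6PR against Col was -3.03 (limma adjusted p = 0.041). YLS5, named for expression in yellow leaves, fell without salt in M6PR leaves (-0.69, adjusted p = 0.041) and in CBF3 leaves (-0.85, adjusted p = 0.019). Under salt in Col, the vacuolar processing enzyme gene GAMMA-VPE fell (-1.09, adjusted p = 0.028), as did ATG8F (-0.58, adjusted p = 0.027) and APG8H (-0.56, adjusted p = 0.019). In the same comparison the leaf markers SBPASE and PRK were lower by -0.64 and -0.43 on the log2 scale (adjusted p = 0.0045 and 0.013), and their part in these results was not tested.

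Of the 17 calls above that use the 2 arrays that stood apart, 6 passed the limma threshold without them and 11 did not. Those that passed were UGT76B1 under salt in Ws (3.26, adjusted p = 0.00037) and in salted CBF3 leaves against Ws (-2.89, adjusted p = 0.00042), SBT3.3 under salt in Ws (0.72, adjusted p = 0.033), PUB23 and GRX480 under salt in Col (2.97 and 1.73, adjusted p = 0.018 and 0.021), and the FER interaction (-1.40, adjusted p = 0.04). GRX480 in salted M6PR leaves against Col was then at -1.46 (adjusted p = 0.24), its interaction at -1.73 (adjusted p = 0.086) and the ATG8E interaction at -2.94 (adjusted p = 0.13). BSMT1 under salt in Ws was at 3.86 (adjusted p = 0.11). Under salt in Col, FER, GLR2.7, ATG8F, APG8H, GAMMA-VPE, SBPASE and PRK kept their sign with adjusted p between 0.055 and 0.26. The fit without these arrays leaves 1 salted array of Ws and 1 of Col, each assumed to vary like the other groups.

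**Figure D5:**
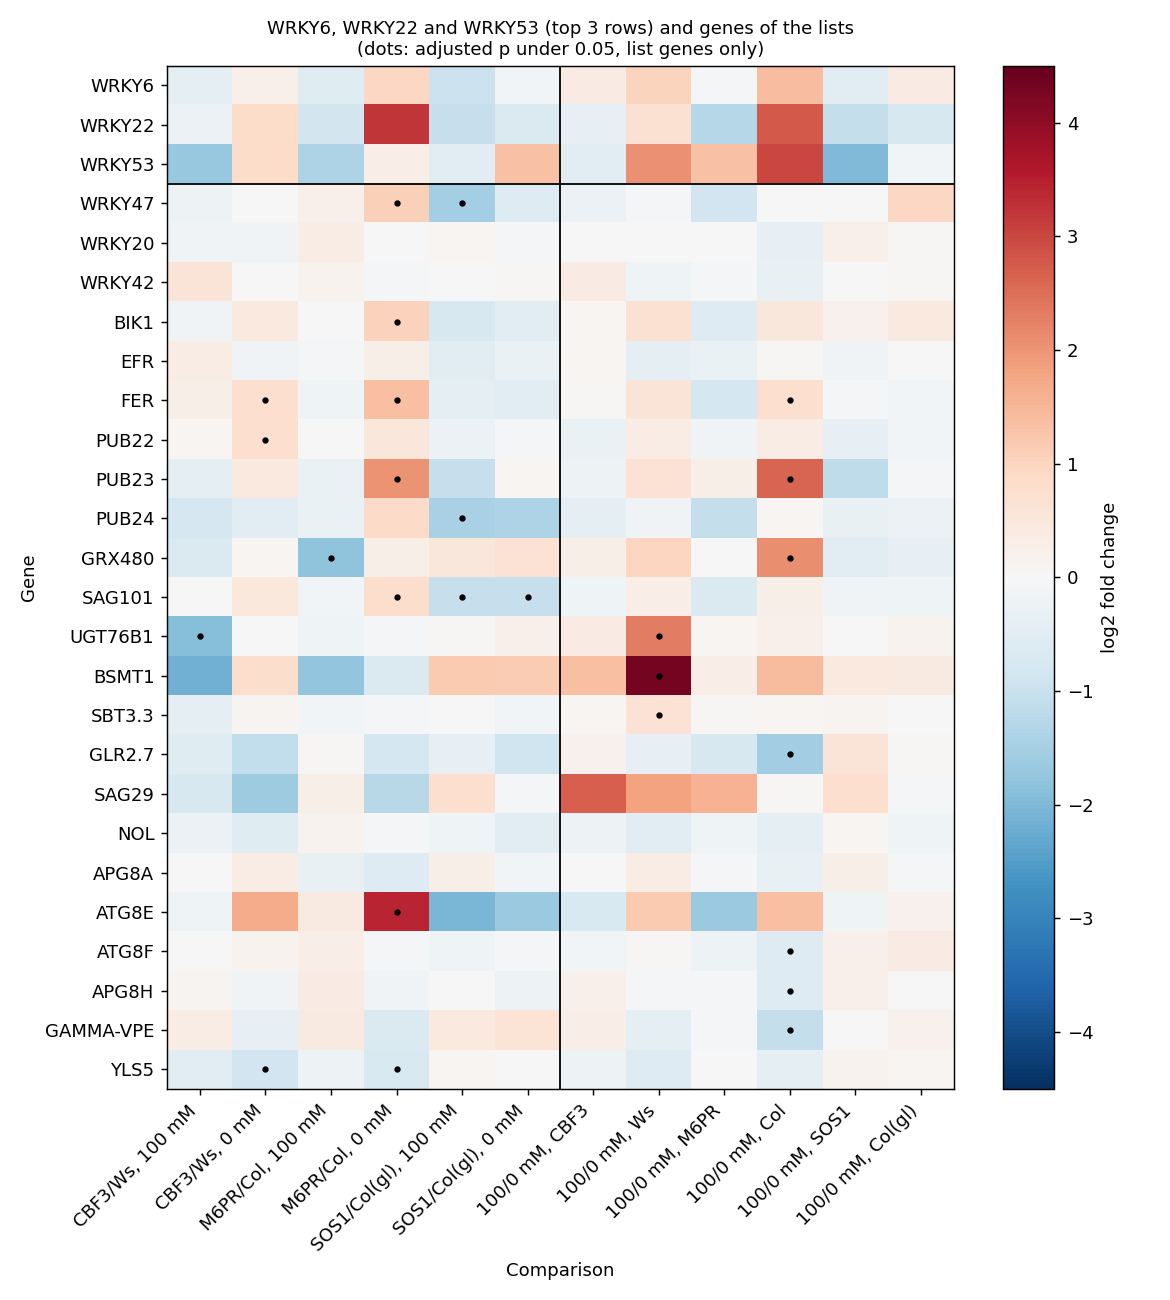
Log2 fold change (colour, red higher and blue lower) of the 3 WRKY genes and of the list genes named in the text (rows) in the 12 comparisons of 2 groups (columns, the line against its wild type left of the vertical line and 100 against 0 mM NaCl right of it). Dots mark list genes with a limma adjusted p under 0.05, and the WRKY genes at the top carry no test. WRKY22 and ATG8E in unsalted M6PR leaves stand at 3.23 and 3.42.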

How the data were processed

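The authors deposited log2 expression values of 24 ATH1 arrays, for which the submitters' processing notes name GCOS and RMA without versions. RMA normalizes arrays together, so a shift shared by most genes is reduced. The values, 2.90 to 14.33, were used as deposited. Tests covered 22746 of the 22810 probe sets, all but 64 controls. GEO's platform annotation paired 13513 of them with 1 gene, 503 with several and 8730 with no gene. RefSeq TAIR10.1 gave current symbols for 13436 through the gene ID, and coordinates are left out since the annotation names no build.

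limma 3.58.1 in R 4.3.3 fitted 12 group means to the 24 arrays (residual df 12), with two-sided moderated tests and Benjamini-Hochberg adjustment over all probe sets within a comparison, threshold 0.05. The fit was tested on simulated data. Number of arrays limits the precision. The 3 WRKY genes and the gene lists were chosen with earlier results of these data known. The wider immunity, salicylate and senescence lists were made by symbol after the files were seen, because few genes of the first lists were paired with a probe set, so no support rests on them. None of 32 listed regulators and targets of the 3 genes and none of 26 root, flower and seed markers could be read. Of the leaf markers 5 of 23 could be read, and 2 were called. Named list genes are mainly the called ones with the smallest adjusted p, up to 4 per list and comparison. Where none was called, up to 2 with the smallest p could be named. Genes that were never called, such as EFR, WRKY20, WRKY42, SAG29, NOL and APG8A, were also named where few genes of a list could be read. Groups not overlapping means that every array of one lay beyond every array of the other.

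The main fit did not pair samples by the replicate numbers of the labels. Over 66 pairs of groups the correlation of deviations ran from -0.36 to 0.70, with a median of 0.0078 and 21 pairs above 0.1. No pairing common to all groups was seen, and this check cannot tell whether some groups share one. Alternatives tried were centred arrays, quantile normalization, array weights, a replicate block, a filter on dim probe sets, an intensity trend, separate fits, and leaving out arrays.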

Additional observations from a re-analysis of the deposited data

Results flagged for a closer look

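The following differences are listed because the groups did not overlap in 2 comparisons that went opposite ways. None of them was tested for the 3 WRKY genes, and the share of all probe sets that meet this rule was not counted. In a single comparison used here, 6.41% to 28.6% of all probe sets did not overlap in the direction of the WRKY gene. Some of the differences rest on values near their SE. These include WRKY22 in salted CBF3 against Ws (-0.25 ± 0.33) and WRKY53 in unsalted M6PR against Col (0.31 ± 0.42). Another is WRKY53 in salted SOS1 against Col(gl) (-0.52 ± 0.42). The salt difference, 100 mM minus 0 mM NaCl, of WRKY22 was lower in M6PR than in Col by -4.05 and lower in CBF3 than in Ws by -1.06. Because the same arrays enter, these are also the changes in the line differences at 100 mM against 0 mM, which turned from higher without salt to lower with salt. For WRKY53 they were -2.53 in CBF3 against Ws, where both the salt difference and the line difference changed sign, and -1.70 in M6PR against Col and -1.85 in SOS1 against Col(gl), where the line differences changed sign. For WRKY6 the salt difference of SOS1 minus that of Col(gl) was -0.86.

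The wild types also went opposite ways for WRKY22: the salt difference of Ws exceeded that of Col(gl) by 1.39, and that of Col exceeded it by 3.48. Among the lines, the salt difference of WRKY53 in CBF3 minus that in M6PR was -1.78, and that in M6PR minus that in SOS1 was 3.28. The last of these includes the 2 unsalted SOS1 arrays, at 6.92 and 8.86.

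A test of the interaction, by limma over all probe sets, was passed in M6PR against Col by 3 list genes, and by 6.08% of all probe sets. The lists held 3 WRKY, 11 immunity, 5 salicylate and 17 senescence genes, SAG101 being on 2 of them. The 3 genes were GRX480 at -2.09 (adjusted p = 0.021), FER at -1.54 (adjusted p = 0.0076) and ATG8E at -3.03 (adjusted p = 0.041). Without the 2 arrays that stood apart, FER passed (adjusted p = 0.04) and GRX480 and ATG8E did not (adjusted p = 0.086 and 0.13).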

How the results depend on the processing

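The sign of all 45 differences of the 3 WRKY genes was kept under centring and under quantile normalization, and changed in 4 of 216 left-out-array values. Centring moved WRKY6 in unsalted SOS1 against Col(gl) to -0.14, WRKY22 in unsalted M6PR against Col to 3.26 and under salt in Col to 2.60, and quantile normalization the first 2 to -0.11 and 3.29. Leaving out each array in turn gave, for the salt difference of line minus wild type in the CBF3, M6PR and SOS1 pairs, -0.95 to -0.30, -2.17 to -0.79 and -1.24 to -0.48 for WRKY6, and -2.92 to -2.14, -1.93 to -1.47 and -2.82 to -0.88 for WRKY53. For WRKY22 it gave -4.52 to -3.58 in the M6PR pair and -0.95 to 0.24 in the SOS1 pair. Without both arrays that stood apart, chosen after seeing the data, the value was -2.17 for WRKY6 and -1.93 for WRKY53 in the M6PR pair, and -2.92 for WRKY53 in the CBF3 pair.

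Among other WRKY genes, 1 was called under salt in Col after centring and 1 under salt in Col(gl) with array weights, against 0 in each as reported. Separate fits gave 0 in unsalted M6PR against Col, 1 call on the WRKY list over all comparisons against 2, and 0 on the pattern receptor list against 1. The replicate block also left 0 calls on the pattern receptor list and moved no other count by over 1.5 times. The senescence list had 7 calls with array weights, and 7 without the arrays that stood apart, against 3. Leaving out each array in turn gave 0 to 1 other WRKY genes in salted CBF3 against Ws, in unsalted M6PR against Col and in salted SOS1 against Col(gl), and list totals of 1 to 3 (WRKY), 0 to 2 (pattern receptors), 3 to 8 (salicylate) and 2 to 10 (senescence). The causes were not tested.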
